A study of Mus musculus with 8 samples.

Results

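The 10 genes described here make, sense, take up or break down prostaglandins: Ptgs1, Ptgs2, Ptgds, Ptges, Ptges2, Ptges3, Ptger1, Ptger4, Hpgd and Slco2a1. They were chosen on the gene names of the probes, out of 34797 gene names on the array, after measured values of these same arrays were known, so their differences between groups are descriptions and carry no test. They are read by 15 of 55681 probes, in 24 spots. For 7 of the 10 genes a probe stood well above background on 4 or more of the 8 arrays, and those 7 are the ones with a difference between groups.

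RNA from the cortex of newborn mice was hybridised to 1-colour Agilent microarrays, 1 array per mouse, for 4 mice of an ischemia group and 4 of a control group. In the ischemia group, clips closed the uterine arteries of the anesthetised mother for 14 min at E16.5, in the last days of gestation. The 8 pups were all male, of inbred strain C57BL/6NCr, and their cortex was collected at postnatal day 1.5; no transgene or other treatment is named. The labels name neither a sham operation of control mothers nor the litter of each pup, so p-values measure the spread between the sampled pups only. The ischemia arrays lay in 1 row and the control arrays in the other row of 1 slide, so row and group cannot be told apart.

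Prostaglandins are short-lived lipid signals made from arachidonic acid, which phospholipases release from membranes. Cyclooxygenases turn arachidonic acid into the unstable prostaglandin H, terminal synthases turn that into prostaglandin D, E, F, prostacyclin or thromboxane, and each product acts on its own G protein-coupled receptors before it is taken up by a transporter and oxidised. In the brain, the D synthase Ptgds is made chiefly by the leptomeninges, the choroid plexus and the oligodendrocyte lineage, and the uptake transporter Slco2a1 is made by endothelial cells among others.

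Values are given as the software's background-corrected signal on a linear scale, or as the log2 of that signal over the 75th percentile of all signals on the same array, so that 0 marks a spot as bright as that percentile. That percentile lay between 305.6 and 393.3 units over the 8 arrays, and 47.6% to 51.7% of the spots on an array were well above background. No spot was saturated. Of the 10 listed cortical neuron markers 10 were measured, and Neurod6, a transcription factor of excitatory cortical neurons, differed by -0.03 between groups on the log2 scale. Some ischemia arrays stood apart in markers of tissue that borders the cortex. Ttr, which encodes transthyretin and is typical of choroid plexus, exceeded its control mean by 10.12 log2 units in ischemia replicate 4. Col1a1, a collagen gene of meningeal fibroblasts, had 146.8, 14.7, 120.7 and 46.0 units in ischemia, against 15.2, 25.6, 17.7 and 24.2 units in control, and was well above background on 3 ischemia arrays and 1 control array, so that no fold is given.

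Ptgds and Slco2a1 were the 2 members with the largest differences between groups, and they differed in kind. Ptgds was far brighter on 2 of the 4 ischemia arrays than on any control array, while the other 2 ischemia arrays lay near the highest control array. Slco2a1 was brighter by a moderate amount on all 4 ischemia arrays. The cyclooxygenase Ptgs1, the E synthases Ptges, Ptges2 and Ptges3 and the degrading enzyme Hpgd differed by 0.12 or less on the log2 scale in either direction. The inducible cyclooxygenase Ptgs2 and the E receptors Ptger1 and Ptger4 were not well above background on any of the 8 arrays.

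**Figure D1:**
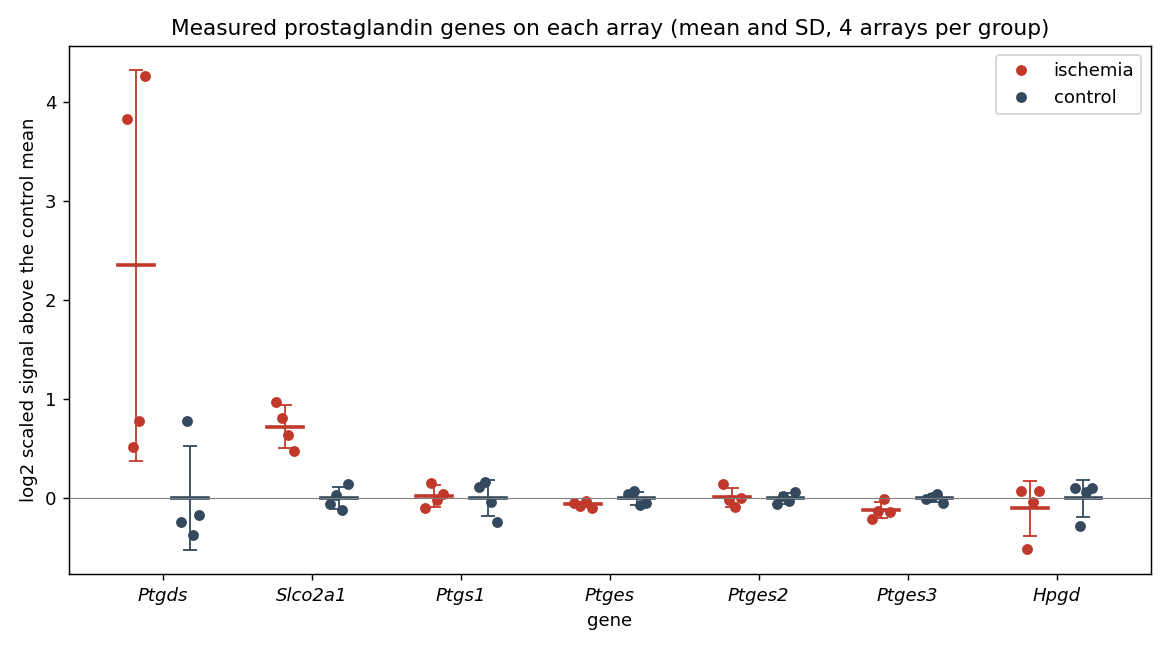
Log2 scaled signal above the control mean (vertical axis) of the 7 measured prostaglandin genes, ischemia to the left of control within each gene; points are single mice, thick lines group means and bars 1 SD (n = 4 per group). For Ptgds, 2 ischemia points lie 3.83 and 4.27 above the control mean and the other 2 at 0.52 and 0.78, the 4 Slco2a1 points of ischemia all lie above the 4 of control, and the other genes overlap.

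The probe sequences show which piece of each transcript was read. Each probe is 60 bases long, and the 30-base stretches printed here, 5′ to 3′ on the probe strand, belong to some of the member probes. The Ptges3 stretch is from a dimmer probe, not from the brightest Ptges3 probe, whose values stand for the gene. Capitals mark AATAAA or ATTAAA, the letters of the polyadenylation signal that lies near the end of most messenger RNAs. They were searched on the probe strand only and were present in 4 of the 15 member probes, against 13.7% of all 55681 probes. No match in a probe says only that these letters are not in its 60 bases. The positions are those of the whole probe in mouse build mm9, as the array files give them.
Ptgds, chr2:25322232-25322291, minus strand: ccttgacaaagaAATAAAagtccaaagcaa
Ptges, chr2:30744995-30745054, minus strand: aagtcagccccaATTAAAtgctttccttta
Ptges, chr2:30748214-30748273, minus strand: gttgtcctcacaggccgtgtggtacacacc
Ptges3, chr10:127514251-127514310, plus strand: tgacttgactgaAATAAAagtgaatgtgtt
Hpgd, chr8:58799399-58799458, plus strand: gaaatatttagtAATAAAagcttgtccggg
Slco2a1, chr9:102990100-102990159, plus strand: ctttattctattatattgctattaatatat
Ptgs2, chr1:151954744-151954803, plus strand: ctgttggaatttacgcataaagcagactgc
The stretches for Slco2a1, Ptgs2 and the other Ptges probe have no capitals because neither set of letters occurs in those probes. Ptgds, Ptges, Ptges2 and Ptgs1 all lie on chromosome 2, within 10.8 Mb of each other.

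The cyclooxygenases come first in the pathway. Ptgs1, the constitutive cyclooxygenase, was measured by 1 probe at chr2:36107644-36107703. Its log2 values were -1.52, -1.26, -1.43 and -1.37 in ischemia, against -1.30, -1.25, -1.46 and -1.65 in control. The groups overlapped throughout, and the difference was 0.02 ± 0.10 (SE, n = 4 per group), with a sign that turned when ischemia replicate 2 or control replicate 4 was left out. Microglia and platelets are known sources of Ptgs1. The microglia list, 12 of 12 measured, had summed levels of 32.3 to 33.8 in ischemia and 29.5 to 34.6 in control. The platelet list, 3 of 6 measured with Itga2b and Gp9 above background on 0 arrays, had 1.26 to 1.89 in ischemia and 1.46 to 1.57 in control. Pf4, a chemokine of platelet granules, differed from its control average by 2.33, -0.04, 1.76 and 0.66 in the ischemia mice, while Ptgs1 was lowest of that group in replicate 1. The other measured platelet genes ran the other way by sign. Gp1bb, a subunit of the von Willebrand factor receptor, differed by -0.23 ± 0.06 (SE), and its groups do not overlap. Treml1 differed by -0.34 ± 0.17 (SE) but was dim, at 20.4 to 33.5 units in ischemia and 26.5 to 30.9 units in control. It was well above background on 2 of the 4 ischemia arrays. Whether the 3 measured genes read platelets was not tested, nor was the part of microglia and platelets in the Ptgs1 values.

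Ptgs2, the cyclooxygenase that neurons and inflammatory cells induce, is printed 10 times on the array, which gives 80 spots over the 8 arrays. None of those 80 spots was well above background, 7 passed the software's pixel test against local background, and for 73 the software had put a substitute value in place of the corrected signal. Its mean processed signals were 7.44, 5.50, 6.03 and 6.02 in ischemia, against 6.36, 5.99, 5.60 and 5.50 in control. The dimmest probe called well above background had between 21.1 and 28.1 units on these arrays, so all 8 Ptgs2 values lay under the level at which a fold can be given. Of 9 genes that neuronal activity induces, as it does Ptgs2, 8 were measured. By sign 5 were higher and 3 lower, against 43.0% of all genes higher. In limma 1 was under an unadjusted p of 0.05, with ischemia higher, against 10.9% of all genes. Fos and Npas4, transcription factors of that response, differed by 0.07 and -0.19 between groups. Fos was dim, at log2 values of -4.03 to -3.42 in ischemia and -4.11 to -3.29 in control. These lie near that lowest level, so its difference says little.

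Ptgds, the lipocalin-type synthase that makes prostaglandin D and is also secreted into the cerebrospinal fluid as a carrier protein, was measured by 1 probe. Its signals were 2955, 303.4, 377.2 and 4382 units in ischemia, against 171.4, 303.5, 143.3 and 201.0 units in control. Scaled to the array, the log2 values were 3.04, -0.27, -0.01 and 3.48 in ischemia, against -1.02, -0.01, -1.16 and -0.96 in control. Ischemia replicates 1 and 4 were high, ischemia replicates 2 and 3 lay close to control replicate 2, the highest control, and the groups overlap. Relative to the control mean, the 4 ischemia arrays were 14.2, 1.43, 1.72 and 19.2 times as bright. The mean log2 value was 1.56 ± 1.97 in ischemia and -0.79 ± 0.53 in control (SD, n = 4 each). The difference was 2.35 ± 0.87 (SE), or 5.10-fold, and rested on 2 of the 4 ischemia mice. Without ischemia replicates 1 and 4, a choice made after their values were seen, it was 0.65. Leaving out 1 array at a time gave 1.71 to 2.96.

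Ptgds also varied between mice of the same group more than almost any gene on the array. Its spread within groups was larger than that of 99.9% of the 19751 genes tested. In the ischemia group alone it was larger than that of 99.9% of genes, and in the control group alone than that of 96.6%. Control replicate 2 lay 0.78 above the control mean on the log2 scale, as far as ischemia replicate 3.

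Markers of the cells that make Ptgds were read on the same arrays. Of the 16 listed meningeal markers 14 were measured, with Foxd1 well above background on 0 arrays. Set against the control average, their mean log2 value was 1.07, -0.15, 0.27 and 0.55 in ischemia replicates 1 to 4, and -0.17, 0.05, -0.03 and 0.15 in control replicates 1 to 4. The summed level of the list, in units of the 75th percentile, ranged from 8.15 to 13.7 in ischemia and from 6.97 to 9.69 in control. Slc22a6, an organic anion transporter of the meninges, differed from its control average by 1.27, -0.31, 0.22 and 0.08 in the 4 ischemia mice. The arrays highest in Ptgds, ischemia replicates 1 and 4, had the highest meningeal list means, but the genes of the list did not share this order. Col1a1 and Slc22a6 were higher in ischemia replicate 3 than in replicate 4. Slc13a4 differed from its control average by -0.23 in replicate 3 and 2.93 in replicate 4. The list mean also takes in Col1a1, which was well above background on 1 control array only.

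The mean of the choroid plexus markers stood apart on 1 of the same arrays. Of 12 listed markers 7 were measured, and Prlr was well above background on 0 arrays. The list mean differed from the control average by -0.05, -0.42, -0.02 and 3.01 in ischemia replicates 1 to 4, against -0.09, 0.04, -0.05 and 0.10 in control. Its summed level ranged from 3.38 to 118.0 in ischemia and from 3.29 to 3.71 in control. Most of the 118.0 was Ttr, with a log2 value of 6.76 on ischemia replicate 4. Folr1, the folate receptor of the choroid plexus, differed from its control average by 0.01, -0.12, 0.06 and 3.28 in the 4 ischemia mice. Ischemia replicate 1, with 14.2 times the control Ptgds, thus had a choroid plexus list mean near the control level. Ischemia replicate 4, with 19.2 times, had a list mean far above it. The genes of the list did not move alike. Their deviations ran from -0.74 for Calml4 to 0.56 for Aqp1 in replicate 1. In replicate 4 they ran from 0.15 for Otx2 to 10.12 for Ttr.

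The oligodendrocyte lineage list, 10 of 10 measured, differed from the control average by 0.28, 0.20, -0.03 and -0.02 in ischemia, with summed levels of 23.8 to 28.7 in ischemia and 24.2 to 24.8 in control. Olig2, a transcription factor of that lineage, differed by 0.11 and Mbp, a myelin protein gene, by 0.07. The part of these tissues in the Ptgds values was not tested. In pieces of whole tissue, more cells of a type and more RNA per cell cannot be told apart.

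**Figure D2:**
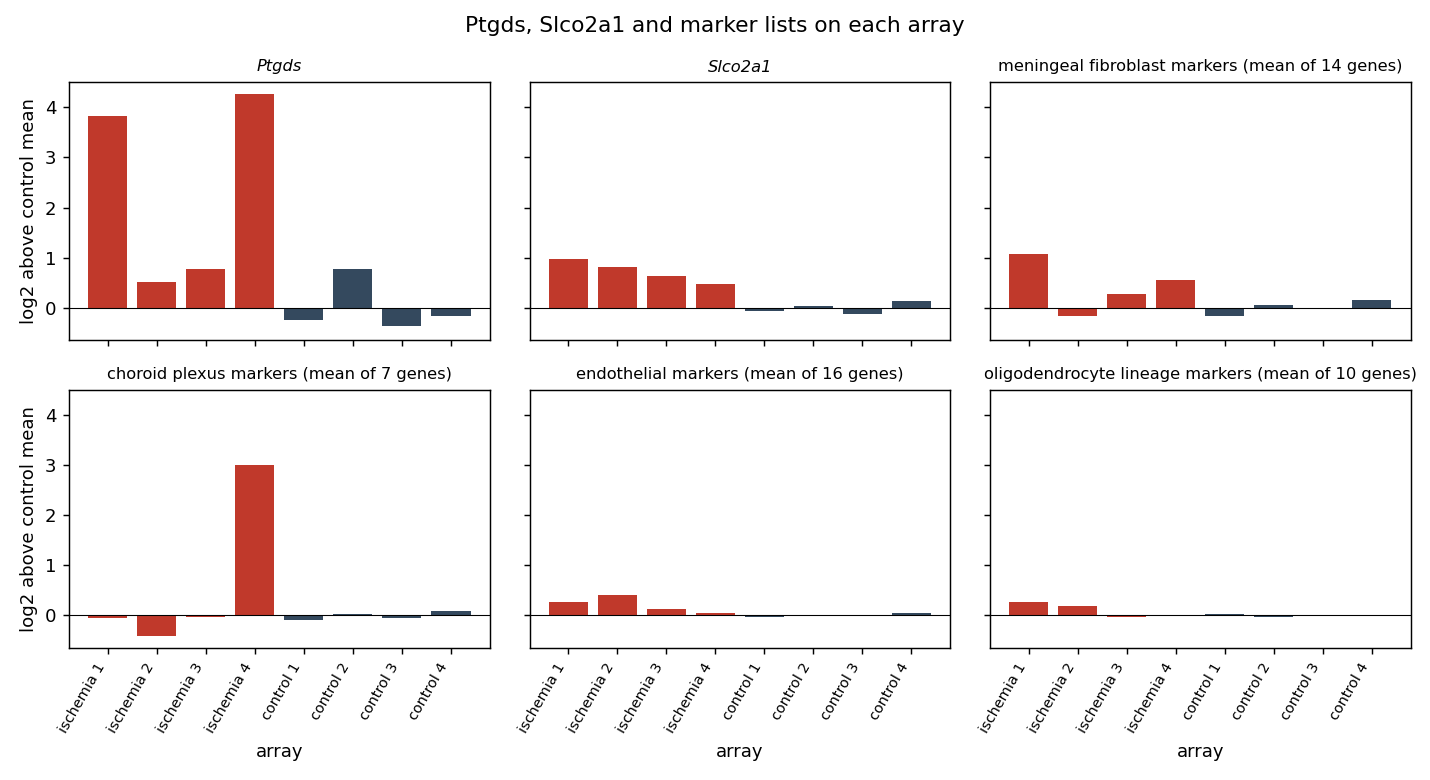
Log2 level above the control mean (vertical axis) on each array for Ptgds, Slco2a1 and the mean of the meningeal, choroid plexus, endothelial and oligodendrocyte lineage marker lists, with ischemia arrays left of control arrays; each bar is 1 mouse and starts at 0. Ptgds lies 3.83 and 4.27 higher in ischemia replicates 1 and 4, and the choroid plexus list reaches 3.01 on ischemia replicate 4 only. The endothelial mean includes Slco1a4, well above background on ischemia arrays only. The meningeal mean includes Col1a1, well above background on 3 ischemia arrays and 1 control array.

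The genes whose values followed Ptgds most closely over the 8 arrays were Dcaf15 (Pearson r = 0.953), Slc13a4 (0.944), Slc25a28 (0.943), Enpp2 (0.938) and Zfp3 (0.936), out of 13569 genes well above background on all 8 arrays. These coefficients rest largely on the 2 bright arrays and describe these 8 mice only. Slc13a4, a sulfate transporter on the meningeal list, differed from its control average by 1.94, 0.21, -0.23 and 2.93 in the ischemia mice. Enpp2, the lysophospholipase that makes lysophosphatidic acid and is on the choroid plexus list, did so by 0.40, 0.08, -0.06 and 0.69.

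The probes of the E synthases differed by small amounts between groups. Ptges, the inducible microsomal synthase that works with Ptgs2, is read by 2 probes whose starts lie 3219 bases apart. The brighter probe, which holds ATTAAA, had log2 values of 4.86, 4.83, 4.88 and 4.81 in ischemia, against 4.95, 4.98, 4.84 and 4.86 in control. Its groups overlap, with a difference of -0.06 ± 0.06 (SE), and its spread within groups was larger than that of 3.44% of genes only. The other Ptges probe was well above background on 2 ischemia and 3 control arrays, with signals of 36.4, 26.1, 40.4 and 45.3 units in ischemia against 49.8, 23.7, 43.6 and 40.2 units in control. Its difference was -0.20 ± 0.22 (SE), and the mean of both probes gave -0.13 in place of -0.06. Whether the brighter probe reads Ptges transcripts alone was not tested, so its values are those of that probe.

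Ptges2, a membrane-bound E synthase, had log2 values of 2.66, 2.49, 2.43 and 2.52 in ischemia, against 2.45, 2.54, 2.49 and 2.58 in control. The groups overlap and the difference was 0.01 ± 0.07 (SE), with a sign that turned in 3 of 20 settings. Ptges3, the cytosolic E synthase that is better known as the Hsp90 co-chaperone p23, is read by 4 probes on chromosome 10. The brightest had log2 values of 5.23, 5.31, 5.43 and 5.29 in ischemia, against 5.43, 5.45, 5.48 and 5.39 in control, which overlap. Its difference was -0.12 ± 0.06 (SE), and those of the other probes were -0.02, -0.13 and -0.14. The probe with AATAAA gave the last of these and had 4.03, 3.94, 4.03 and 4.02 in ischemia, against 4.16, 4.17, 4.09 and 4.18 in control, so that its groups do not overlap. All 4 probes were lower in ischemia by under 0.15 on the log2 scale. Since they were read in the same RNA samples they are not independent readings, and whether they read the same transcripts was not tested.

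The receptors for prostaglandin E on the member list gave no measurable level. Ptger1, the receptor that couples to calcium release, had signals of 24.6, 25.6, 7.79 and 7.23 units in ischemia, against 13.8, 7.16, 7.88 and 14.7 units in control. Ptger4, which couples to cyclic AMP, had 6.56, 10.3, 5.54 and 5.19 units in ischemia, against 5.51, 4.62, 4.98 and 5.93 units in control. Neither was well above background on any array, and for Ptger4 the software had put in a substitute value on 6 of the 8. Such values limit the level from above and do not show that the receptors were absent. Of the receptors outside the member list, Ptger2 for prostaglandin E, Ptgfr for F, Ptgdr and Ptgdr2 for D and Ptgir for prostacyclin were likewise well above background on 0 arrays. Another prostaglandin E receptor, Ptger3, and the thromboxane receptor Tbxa2r, both named after their values were seen, did have a probe well above background on all 8 arrays. The Ptger3 probe had 63.4 to 83.9 units in ischemia and 64.2 to 93.4 units in control, and its difference was -0.24 ± 0.18 (SE), while a dimmer Ptger3 probe gave 0.26. Tbxa2r had 86.0 to 127.2 units in ischemia and 90.9 to 119.5 units in control, with a difference of -0.24 ± 0.13 (SE).

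**Figure D3:**
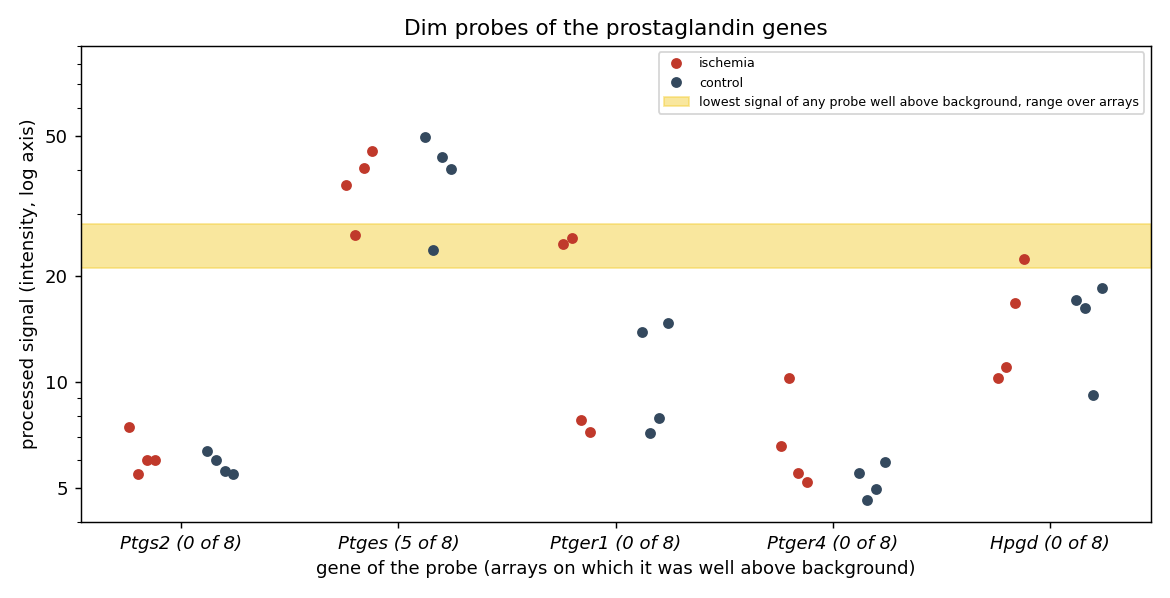
Processed signal in units on a log axis of the member probes that were well above background on fewer than 8 arrays, ischemia arrays left of control arrays; points are single mice and the band marks the dimmest well-above-background probe of the arrays, 21.1 to 28.1 units. Ptgs2 and Ptger4 lie under the band on all 8 arrays, and Ptger1 reaches it on ischemia replicates 1 and 2 only.

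Hpgd, the dehydrogenase that starts the breakdown of prostaglandins inside cells, is read by 2 probes. The brighter one, which holds AATAAA, had signals of 44.4, 30.2, 43.3 and 48.7 units in ischemia, against 44.1, 29.7, 39.4 and 49.5 units in control. Replicate 2 was the lowest of each group, the groups overlap, and the difference was -0.10 ± 0.15 (SE). Leaving out ischemia replicate 2 turned it to 0.03. The other Hpgd probe was not well above background on any array, with 10.3 to 22.3 units in ischemia and 9.22 to 18.5 units in control.

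Slco2a1, the transporter that carries prostaglandins into cells for breakdown, was measured by 1 probe. Its signals were 568.7, 516.5, 475.5 and 440.9 units in ischemia, against 271.1, 252.6, 237.8 and 349.2 units in control. Every ischemia mouse was above every control mouse. After scaling, the log2 values were 0.67, 0.50, 0.33 and 0.16 in ischemia against -0.36, -0.27, -0.43 and -0.16 in control, which leaves 0.33 between the groups. The mean was 0.41 ± 0.22 in ischemia and -0.31 ± 0.11 in control (SD, n = 4 each), a difference of 0.72 ± 0.11 (SE) or 1.65-fold. It was 0.64 to 0.80 when 1 array was left out, and 0.72 without ischemia replicates 1 and 4, the arrays high in Ptgds. Unlike that of Ptgds, its spread within groups was ordinary for the array, larger than that of 63.5% of genes.

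Endothelial cells are a known source of Slco2a1, and all 16 listed endothelial markers were measured. Their mean log2 value differed from the control average by 0.27, 0.42, 0.13 and 0.04 in ischemia, against -0.03, -0.01, -0.01 and 0.05 in control. That mean takes in Slco1a4, which was well above background on ischemia arrays only. Its deviations of 1.05, 1.13, 1.46 and 0.72 in ischemia rest on dim control values and raise the mean on each ischemia array. In ischemia replicate 2 the mean also takes in 1.85 for Pecam1. The summed level ranged from 65.2 to 77.6 in ischemia and from 69.5 to 75.5 in control. Cldn5, the tight junction protein of brain endothelium, differed from its control average by 0.32, 0.09, -0.14 and -0.04 in ischemia, and Pecam1, an adhesion molecule of all endothelium, by -0.31, 1.85, -0.40 and -0.29. By sign 9 of the 16 markers were higher and 7 lower, against 43.0% of all genes higher. In limma 0 of the 16 passed the adjusted threshold. At an unadjusted p of 0.05 in limma there were 5 higher and 1 lower, against 10.9% of all genes in either direction. The 6, named after their values were seen, were Ly6c1, a surface protein (0.84), Emcn, a mucin of capillaries and veins (0.80), the efflux pump Abcb1a (0.49), the glucose transporter Slc2a1 (0.34) and the organic anion transporter Slco1a4 on the higher side, and the VEGF receptor Kdr (-0.31) on the lower. Slco1a4 was well above background on 4 of 4 ischemia and 0 of 4 control arrays, with 39.4 to 63.5 units in ischemia and 14.6 to 26.3 units in control. Emcn was well above background on 2 of the 4 control arrays. The part of the endothelial markers in the Slco2a1 difference was not tested. The genes whose values followed Slco2a1 most closely over the 8 arrays were 2410018L13Rik (Pearson r = 0.986), Sgms1 (0.976), Pla1a (0.973), Pbx2 (0.973) and Sesn1 (0.973), with the difference between the groups included in each coefficient.

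Over all genes tested, 1 of 19751 passed a Benjamini-Hochberg adjusted p of 0.05 in limma, which is 0.00506%, and 0 of the 7 measured members did. At an unadjusted p of 0.05 the share was 10.9% of all genes, and 2 of the 7 members, Ptgds and Slco2a1, were under it. Groups without overlap were found in 2.27% of genes with ischemia higher and in 4.28% with ischemia lower, and in 1 and 0 of the members. Since the members were chosen with this contrast known, nothing is read from these counts. The median difference was 0.01 over the 7 members and -0.02 over all genes, and 4 members were higher and 3 lower in ischemia, against 43.0% of all genes higher.

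The rest of the prostanoid pathway was taken as a whole list, whatever its values. This list and the other gene lists were nevertheless chosen with earlier results of these data known. Of 20 further synthases, receptors, reductases and transporters on the array 14 were measured, and 0 passed the adjusted threshold. At an unadjusted p of 0.05 in limma there were 0 higher and 2 lower, against 10.9% of all genes in either direction. By sign 2 of the 14 were higher and 12 lower, against 43.0% of all genes higher, with a median difference of -0.12. Ptgis, the prostacyclin synthase, had log2 values of -1.11, -1.67, -1.68 and -1.20 in ischemia, against -0.77, -0.77, -0.95 and -0.78 in control. Its groups do not overlap, and its difference of -0.60 ± 0.14 (SE, n = 4 per group) had an adjusted p of 0.243 in limma. A dimmer Ptgis probe, well above background on 5 arrays, gave -0.27. Ptgr2, a reductase that acts on prostaglandin breakdown products, differed by -0.44 ± 0.16 (limma adjusted p = 0.393), with -0.44 to -0.10 over its 3 probes and -0.27 without ischemia replicate 3. Prxl2b, which makes prostaglandin F, differed by -0.14 ± 0.07 (limma adjusted p = 0.515), and by -0.09 without ischemia replicate 3. The other D synthase, Hpgds, was well above background on 0 arrays.

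The genes around the supply of arachidonic acid were read from a list of 15, of which 11 were measured and 0 passed the adjusted threshold. Some of the listed genes, such as Acsl4, use arachidonic acid and do not release it, so the counts give no direction of supply. At an unadjusted p of 0.05 in limma there was 1 higher and 0 lower, against 10.9% of all genes in either direction. By sign 8 of the 11 were higher and 3 lower, against 43.0% of all genes higher, with a median of 0.06. Pla2g3, a secreted phospholipase, had log2 values of 0.97, 0.72, 0.52 and 0.30 in ischemia, against -0.12, 0.05, 0.10 and 0.31 in control, which overlap by control replicate 4. Its difference was 0.54 ± 0.15 (limma adjusted p = 0.294), and a dimmer probe gave 0.25. Acsl4, which couples arachidonic acid to coenzyme A, differed by -0.17 ± 0.08 (limma adjusted p = 0.479), and the cytosolic phospholipase Pla2g4e by 0.24 ± 0.13 (limma adjusted p = 0.539), or 0.15 without ischemia replicate 2. Pla2g4c and Pla2g10 were well above background on 0 arrays.

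Lipoxygenases draw on the same arachidonic acid to make leukotrienes and related lipids. Of 11 genes 5 were measured, and 0 passed the adjusted threshold. In limma 0 were under an unadjusted p of 0.05, against 10.9% of all genes. By sign 1 was higher and 4 lower, against 43.0% of all genes higher, with a median of -0.05. Ltc4s, the leukotriene C synthase, differed by -0.26 ± 0.14 (limma adjusted p = 0.527), Ltb4r1, a leukotriene B receptor, by -0.12 ± 0.10 (0.740), and the skin lipoxygenase Alox12b by 0.25 ± 0.26 (0.785). The Alox12b difference was 0.08 without ischemia replicate 1, 0.13 without ischemia replicate 2, 0.16 without control replicate 3, 0.38 without control replicate 4 and 0.47 without ischemia replicate 4. That of Ltb4r1 was -0.18 without ischemia replicate 4 and -0.21 without control replicate 3. Alox5, Alox12, Alox15 and the receptor Cysltr2 were well above background on 0 arrays.

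**Figure D4:**
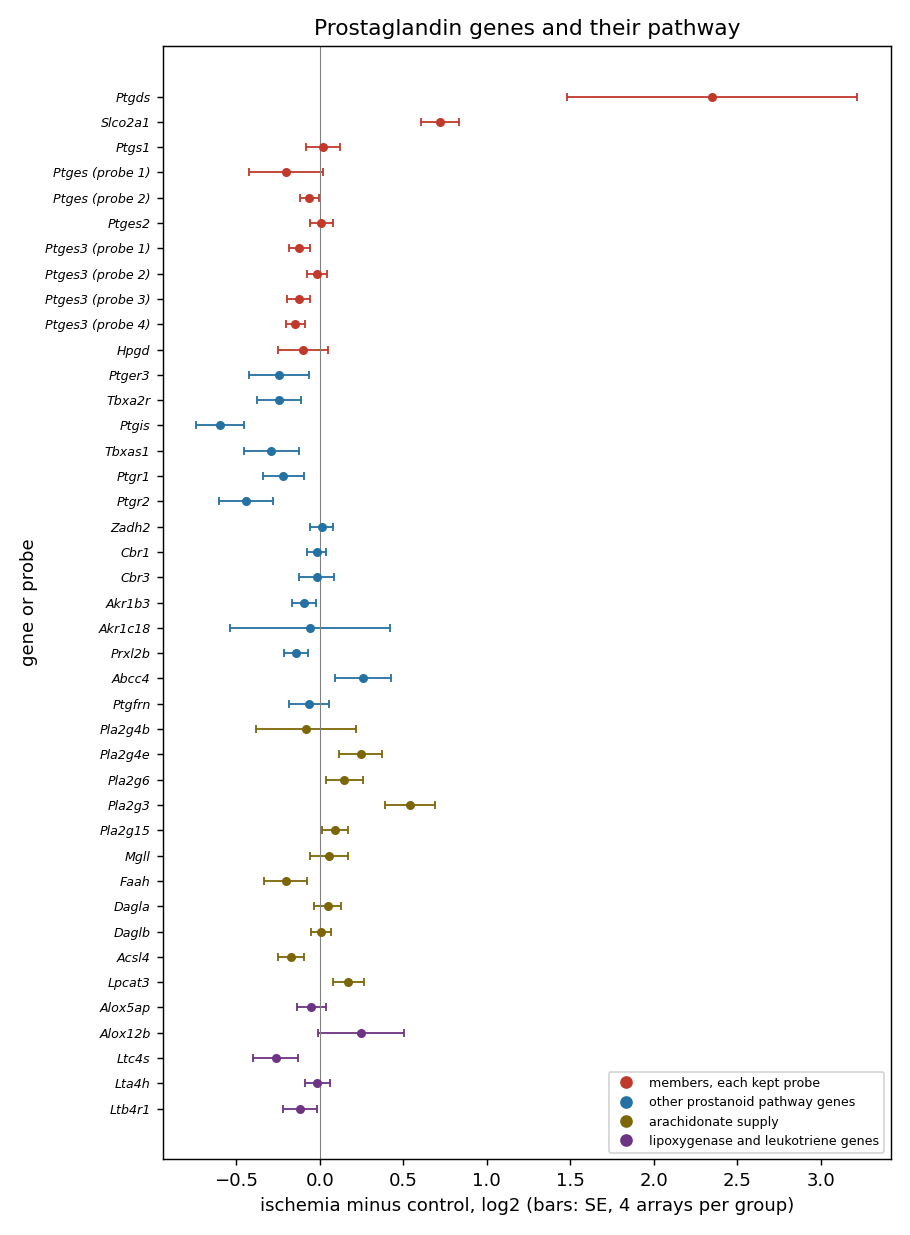
Difference of ischemia minus control on the log2 scale (horizontal axis), with bars of 1 SE, for each measured probe of the prostaglandin genes and for the measured genes of the prostanoid, arachidonate supply and lipoxygenase lists. Ptgds at 2.35 has the widest bar, and Slco2a1 at 0.72 and Ptgis at -0.60 lie farthest from 0 among the rest.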

How the data were processed

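Values are the intensities the authors deposited: the processed signal of each spot, read with Agilent Feature Extraction 10.7.3.1 per the submitters' processing notes and corrected for background by that software. The authors' deposited value table is a ratio, the same signal over a constant for each array, with column medians of 0.0836 to 0.1003; the constant's meaning is not stated in the labels. Here, control and outlier spots were left out, spots of a probe averaged, and signals divided by the array's 75th percentile before log2. A probe was well above background on an array where at least 50% of its spots were, and was tested if so on 4 or more arrays. The probe with the highest mean stood for a gene. Accessions named 27235 probes; 3581 were named by symbol, 565 by an older symbol, and 24300 kept the file's name. Groups were compared over all genes with limma 3.58.1 in R 4.3.3, without covariates, after the steps were tested on simulated data. The number of arrays limits the precision. All arrays came from 1 slide and 1 scan.

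The members and gene lists were chosen with earlier results of these data known. Named genes are all members with every probe; from each pathway list the 3 with the smallest unadjusted p and those above background on 0 arrays; 2 defining markers per marker list, where they bear on a member (1 cortical marker is not reported here); and the 5 genes most like Ptgds and Slco2a1. No annotation of build mm9 was used, so probes are not placed in exons or UTRs. Alternatives were other scalings, background corrections, filters and probe rules, the authors' table, array weights, a trended and robust variance, a replicate block and leaving out arrays.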

Additional observations from a re-analysis of the deposited data

Results flagged for a closer look

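In 54 sets of 4 values, the gap between the farthest value and its nearest neighbour was set against the whole range. Each set was 1 group of a measured member, of a gene named from a pathway list by its p, or of a gene list. Single marker genes, such as Pecam1 and Folr1, were not among the sets. In 5 sets the gap passed Dixon's 95% critical value for 4 values, where chance gives about 1 in 20, or 2.7 sets. The mean of the choroid plexus markers was high in ischemia replicate 4, with a gap of 0.885 of the range. Hpgd was low in control replicate 2 (0.900) and Ptgis was low in control replicate 3 (0.937). Ltb4r1 was low in control replicate 3 (0.842) and Ltc4s was low in control replicate 4 (0.842). The Ptgds values of the ischemia group did not stand apart in this way, since 2 of the 4 were high together.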

How the results depend on the processing

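The number of genes past the adjusted threshold was 1 and moved with the processing: it was 20 with a trended and robust variance, 2 with median scaling, and 0 with normexp background correction, quantile normalization, no filter on dim probes, a filter for all 8 arrays, the replicate block, or without ischemia replicates 1 and 4 together, a setting added after seeing the data. Leaving out 1 array gave 0 to 1, the count of 1 without ischemia replicate 4. At an unadjusted p of 0.05 the count was 2152, against 1332 with median scaling and 1619 to 2402 with 1 array left out. The number of members past the adjusted threshold in limma was 0, with 2 at an unadjusted p of 0.05; it was 1, Slco2a1, with the trended and robust variance, and 0 whichever array was left out. The 3 pathway lists had 0 in all 20 settings. The Ptgds and Slco2a1 differences kept their sign in all 20 settings, at 0.65 to 2.96 and 0.58 to 0.80. The cause of these shifts was not tested, other than that leaving out arrays leaves fewer samples. As to pairing, the deviations of mice with the same replicate number correlated at 0.084, -0.055, 0.288 and 0.391, and 2 of the 4 matched their own number best; the labels give no meaning to the number, so it was not used as a pairing. The replicate block gave 2346 genes at an unadjusted p of 0.05. Signal over background limits Ptgs2, Ptger1 and Ptger4 to upper bounds.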

Other observations

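Values outside the named-gene rule, picked after they were seen, concern genes next to the prostaglandin pathway. Alox8, a lipoxygenase, had 230.7 units on ischemia replicate 1 and between 5.64 and 7.03 units on the other 7 arrays, and was well above background on that 1 array only. Akr1c18, a reductase of steroids and prostaglandins, had 144.0 units on ischemia replicate 2 and between 30.6 and 57.0 units on the others.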
